A study of Arabidopsis thaliana with 14 samples.

Results

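HDA9 is a histone deacetylase of the RPD3 type, an enzyme class that removes acetyl groups from histone tails, and PWR (POWERDRESS) is a SANT domain protein that the study examined as its partner in *Arabidopsis thaliana* leaves. The transcripts described here are those with a lower level in *hda9* than in WT early senescent leaves in both library pairs and without a like difference between *pwr* and WT replicate 2. There were 69 such genes among the 33278 gene identifiers of the expression tables. The members were chosen on the log2(FPKM + 1) scale, where FPKM is a fragment count scaled to transcript length and to the number of mapped reads. A gene had to be above 0 FPKM in all 6 early senescent libraries with a mean of at least 1 FPKM, which 17743 genes were. *hda9* replicate 1 minus WT replicate 1 and *hda9* replicate 2 minus WT replicate 2 both had to be at most -1, and the mean of the 2 *pwr* libraries minus WT replicate 2 had to be above -0.5. Of the 17743 genes, 223 met the *hda9* condition (1.26%), and 69 of these also met the *pwr* condition (0.389% of 17743). The other 154 were lower in *pwr* as well by this measure, which sets *pwr* against WT replicate 2 only.

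The *hda9* and *pwr* mutants, each a single T-DNA insertion line, were set against wild type Columbia-0 (WT). The leaves came from plants on soil in continuous light. Early senescent (ES) leaves, whose age the labels do not give, were profiled by RNA-seq in 2 libraries each of *hda9*, *pwr* and WT, and young leaves (YL), labelled as 2 weeks old, in 1 library of *hda9* and 2 of WT. The study's methods give a younger age for the young leaves than the labels do. No *pwr* young leaf library was analysed here. The methods call the RNA-seq replicates biological, but neither they nor the labels say which plants each library came from, and a p-value measures the spread between these libraries. The series also has 5 ChIP-seq samples, not analysed here.

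Because the rule used the ES values, the ES differences of the members are a description and carry no test. In ES the median *hda9* minus WT difference of the 69 members was -1.30 in pair 1 and -1.46 in pair 2, against 0.04 and 0.00 over the 17743 genes. Genes closest to the *hda9* limit on the inside were ERF6 (-1.001 in pair 1), MRU1 (-1.003 in pair 1) and COPT2 (-1.01 in pair 2), and those just outside were AtkdsA1 (-0.995), PSBR (-0.990) and AT3G17640 (-0.989). At the *pwr* limit, AT3G50685 (-0.494), AT5G59130 (-0.490) and AT3G44798 (-0.483) were just inside, and UP6 (-0.522), AT1G51402 (-0.538) and COR15B (-0.547) just outside. The members were 66 protein-coding genes, 1 pseudogene, 1 lncRNA and 1 further non-coding RNA. They lay on chromosome 1 (22 genes), 2 (14), 3 (11), 4 (7) and 5 (15). Their RefSeq gene spans were short, with a median of 1208 nt and 40.6% under 1000 nt, against 2396 nt and 6.99% for the genes that passed the filter. This was not particular to the members. The other genes lower in both *hda9* pairs had a median of 1314 nt and 33.3% under 1000 nt (153 genes with a span).

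The FPKM steps of low genes set 5 libraries apart from the other 4, a division absent from the labels. These 5 were both *pwr* libraries, the second *hda9* and WT libraries of ES and the second WT library of YL. Between any 2 of them from 5.96% to 21.0% of low genes had the same FPKM ratio, against at most 0.545% between any other libraries. Pair 2 of the rule and both *pwr* libraries therefore lie inside this set and pair 1 outside it. The 4 leaf mesophyll genes fixed as markers summed to 13296 and 3222 FPKM in *hda9*, 8477 and 11758 in *pwr* and 15844 and 6215 in WT ES libraries, so replicate 2 was lower in both *hda9* and WT. The 5 floral organ markers summed to at most 3.28 FPKM in any ES library. Of these, AP3 and AP1 had 0.0993 and 0.0783 FPKM in WT replicate 1 and were listed at 0 in the other 5. The sums in those 5 libraries came from PI, AG and SEP3. Pollen markers, given below, were higher.

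How far *pwr* kept these transcripts depended on the WT library it was set against. WT replicate 1 was above WT replicate 2 for 59 of the 69 members (85.5%), with a median gap of 1.07 on the log2 scale. The same order held for 64.9% of the other 154 genes that met the *hda9* condition and for 38.2% of all 17743 genes. The mean of the *pwr* libraries differed from WT replicate 2, which the rule used, by a median of -0.07, but from WT replicate 1 by a median of -1.04. For 36 members the *pwr* mean lay at least 1 below WT replicate 1, as it did for 6.01% of all genes. When *pwr* was set against WT replicate 1 in place of replicate 2, 17 of the 69 members still met the -0.5 condition, and when it was set against the WT mean, 31 did. Against the WT mean the *pwr* difference was at most -1 in 9 members and at or below that of *hda9* in 2, ECS1 (-1.56 in *pwr* and -1.32 in *hda9*) and AT3G44798 (-1.23 in *pwr* and -1.11 in *hda9*). For 41 members (59.4%) both *hda9* libraries were below both WT libraries, against 16% of all genes, and for 37 (53.6%) both were below both *pwr* libraries, against 20.1%. The rule used all 6 ES libraries and itself favours such orders, a low WT replicate 2 and a high WT replicate 1. Nothing is read from the shares in this paragraph.

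**Figure D1:**
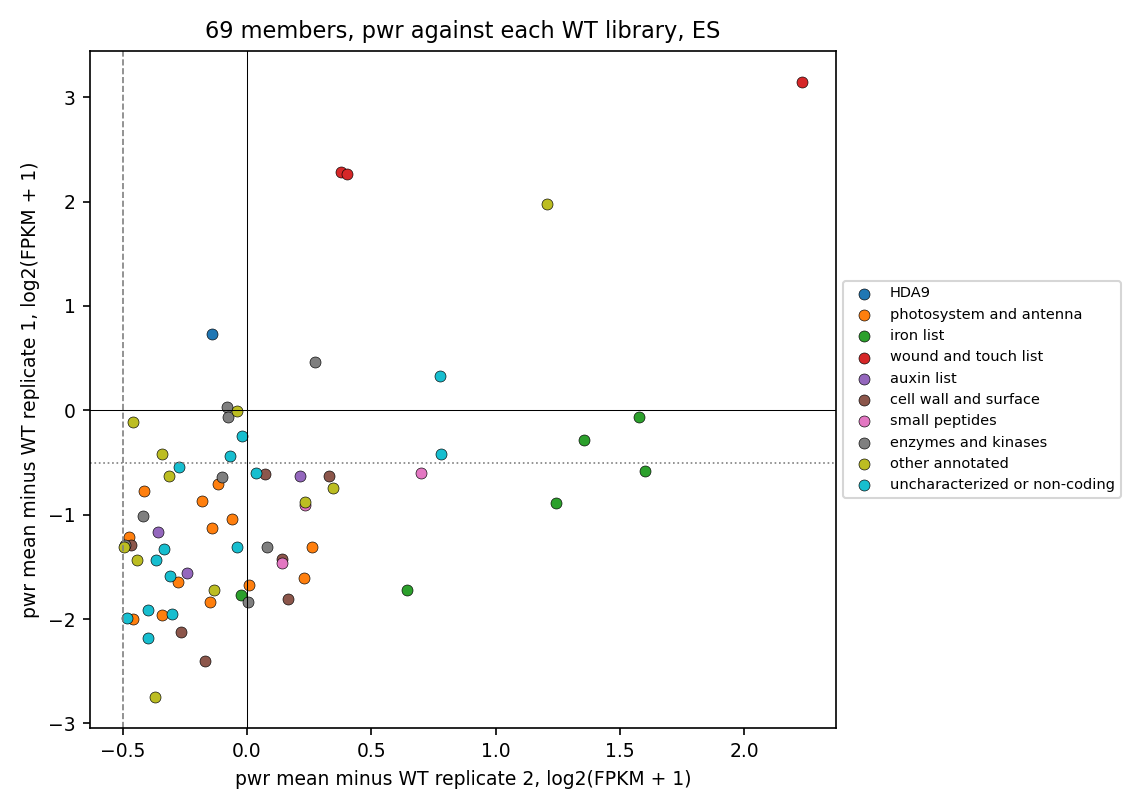
Each point is a member, placed by the *pwr* mean minus WT replicate 2 (x axis) and minus WT replicate 1 (y axis) in ES leaves, both as log2(FPKM + 1) differences, and coloured by role group. The dashed vertical line is the limit of -0.5 that the rule used and the dotted horizontal line the same limit against WT replicate 1, above which 17 of the 69 points lie.

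Between the WT libraries those 17 members had a median absolute gap of 0.45 on the log2 scale, against 1.29 for the other 52 members. The gap was wide for some of the 17, with WT replicate 1 minus WT replicate 2 at -1.91 for ORA47, -1.86 for CAF1a and 1.64 for both BHLH101 and AT2G30766. In 13 of them both *hda9* libraries lay below both WT and both *pwr* libraries. This group was formed after the values were seen and has no test. The other 52 members met the limit against WT replicate 2 and missed it against WT replicate 1, which requires a higher WT replicate 1. The split and the rule thus favour the gaps and the order given here, so nothing is read from them. AT5G11330, annotated as an FAD/NAD(P)-binding oxidoreductase, had 24.9 and 28.6 FPKM in *hda9*, 86.0 and 97.0 in *pwr* and 66.0 and 75.3 in WT. The *hda9* libraries stood clear below the other 4, and the *pwr* libraries lay above both WT libraries. AT3G45160, a putative membrane lipoprotein, had 36.9 and 45.8 FPKM in *hda9*, 94.4 and 122 in *pwr* and 108 and 110 in WT. MLP43, a major latex protein family member, had 29.6 and 30.3 FPKM in *hda9*, 88.6 and 68.5 in *pwr* and 104 and 98.9 in WT. AT1G33170, a predicted methyltransferase, had 3.14 and 3.60 FPKM in *hda9*, 8.29 and 8.07 in *pwr* and 8.62 and 8.67 in WT. In these 3 genes *pwr* and WT lay close together and *hda9* clear below them. CP5, a polyketide cyclase and lipid transport family protein, had 551 and 612 FPKM in *hda9*, 1349 and 786 in *pwr* and 1110 and 1416 in WT, so the *pwr* libraries spread further here. AT1G01130, a CBL-interacting kinase family gene, was low throughout at 0.352 and 0.466 FPKM in *hda9*, 2.83 and 1.75 in *pwr* and 2.18 and 2.43 in WT.

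HDA9 itself (chr3:16226519-16230009, TAIR10.1) was a member. It had 1.12 and 3.21 FPKM in *hda9*, 11.3 and 9.71 in *pwr* and 5.94 and 11.7 in WT ES leaves, so the mutated gene was low in both libraries labelled *hda9* and at the WT level in *pwr*. In YL it had 0.918 FPKM in *hda9*, against 3.34 and 4.73 in WT. PWR, which is no member, had 28.5 and 51.5 FPKM in *hda9*, 7.01 and 6.02 in *pwr* and 10.2 and 17.0 in WT ES leaves. It was higher in *hda9* than in WT by 1.47 ± 0.39 on the log2 scale (SE, n = 2 libraries each, limma unadjusted p = 0.0106, adjusted p = 0.908). The *pwr* minus WT difference of PWR was -0.92 (limma unadjusted p = 0.0608).

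Photosystem and antenna genes made up 13 members, the largest group with a shared role. Photosystems I and II are the pigment and protein complexes of the thylakoid membrane that turn light into electron flow. Their antenna proteins (LHCA for photosystem I, LHCB for photosystem II) collect the light, and their nuclear genes are among the most strongly expressed in green leaves and fall as leaves age. The members were the photosystem I subunits PSAO, PSAG, PSAL and PSAE-2, the antenna proteins LHCA3, LHCB4.1, LHCB5 and LHCB6, the oxygen-evolving complex proteins PSBO1 and PSBQ-2, the small subunit PSBX, the assembly factor PSB27, and AT1G51400, a photosystem II 5 kD protein. In bulk leaves, fewer cells of a type and less RNA per cell cannot be told apart.

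LHCB5 had 2251 and 560 FPKM in *hda9*, 1881 and 1408 in *pwr* and 6523 and 2238 in WT ES leaves. *hda9* replicate 1 was level with WT replicate 2 here, and both *pwr* libraries were below both WT libraries. PSAL had 2912 and 899 FPKM in *hda9*, 2012 and 2040 in *pwr* and 6480 and 2014 in WT. PSBX had 2580 and 493 FPKM in *hda9*, 1523 and 2134 in *pwr* and 5484 and 1539 in WT. For both, WT replicate 1 stood above the other 5 libraries, and *hda9* replicate 1 was above WT replicate 2. PSBO1 had 1903 and 1025 FPKM in *hda9*, 2327 and 2398 in *pwr* and 3854 and 2561 in WT. PSAO had 1162 and 615 FPKM in *hda9*, 1551 and 1178 in *pwr* and 2474 and 1533 in WT. These, with AT1G51400, were the 3 of the 13 in which both *hda9* libraries were below the other 4. In PSBO1, the manganese-stabilising protein of water oxidation, the *pwr* mean lay 0.12 below WT replicate 2 and 0.71 below WT replicate 1 on the log2 scale, the smallest gap to WT replicate 1 among the 13. AT1G51400 had 118 and 58.7 FPKM in *hda9*, 159 and 147 in *pwr* and 263 and 204 in WT. An opposite-strand gene, AT1G51402, overlaps it by 390 nt, averaged 551 FPKM in WT ES leaves and missed the rule by its *pwr* difference of -0.538. The use of strand in counting is not stated, so reads of such a pair cannot be told apart.

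Across the 13, the median *hda9* minus WT difference was -1.15 in pair 1 and -1.37 in pair 2. The *pwr* mean was -0.15 from WT replicate 2 and -1.31 from WT replicate 1 by the median, and all 13 were higher in WT replicate 1 than in replicate 2. Both *hda9* libraries were below both WT libraries in 6 of the 13. PSAG, for instance, had 1848 and 399 FPKM in *hda9*, 1236 and 1339 in *pwr* and 4587 and 1425 in WT. PSBQ-2 had 1678 and 665 FPKM in *hda9*, 1175 and 1174 in *pwr* and 4571 and 1488 in WT. In both, WT replicate 1 alone was far above the rest. LHCA3 had 1390 and 941 FPKM in *hda9*, 1984 and 1281 in *pwr* and 3687 and 2216 in WT, with *hda9* below both WT libraries. LHCB6 had 802 and 324 FPKM in *hda9*, 944 and 755 in *pwr* and 1850 and 931 in WT. The 4 leaf mesophyll markers, whose sums are given above, were likewise lower in replicate 2 of *hda9* and WT. Their median *hda9* minus WT difference was -1.18. Their sum was 15844 FPKM in WT and 13296 in *hda9* in pair 1, and 6215 and 3222 in pair 2. LHCB2.1 among them, itself an antenna gene of photosystem II, was called lower (-1.65 ± 0.66, limma unadjusted p = 0.0477, adjusted p = 0.908). The 11 senescence markers had a median of 1.06 in *hda9* ES leaves, with 1 called higher and 0 lower. The part of either in the values of the photosystem members was not tested.

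In the 250 bases before the RefSeq gene start, 5 of the 13 photosystem and antenna members hold the G-box CACGTG, the palindrome bound by bZIP and bHLH factors, whereas 7.53% of 17699 promoters of filtered genes do. The 5 promoters are printed to show where the G-box stands, with CACGTG in capitals and each read 5′ to 3′ on the strand of its gene (RefSeq, TAIR10.1).
LHCB6, chr1:5447881-5448130, minus strand: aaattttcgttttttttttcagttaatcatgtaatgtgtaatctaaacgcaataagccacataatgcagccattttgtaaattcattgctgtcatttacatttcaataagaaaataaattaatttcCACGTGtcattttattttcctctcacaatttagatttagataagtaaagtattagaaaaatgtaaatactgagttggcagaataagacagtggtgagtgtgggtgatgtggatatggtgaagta
AT1G51400, chr1:19052583-19052832, minus strand: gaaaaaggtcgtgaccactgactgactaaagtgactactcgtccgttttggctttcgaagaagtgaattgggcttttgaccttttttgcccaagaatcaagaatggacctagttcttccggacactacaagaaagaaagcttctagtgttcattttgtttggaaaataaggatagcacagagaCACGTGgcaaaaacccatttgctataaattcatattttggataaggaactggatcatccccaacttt
PSAE-2, chr2:8736484-8736733, plus strand: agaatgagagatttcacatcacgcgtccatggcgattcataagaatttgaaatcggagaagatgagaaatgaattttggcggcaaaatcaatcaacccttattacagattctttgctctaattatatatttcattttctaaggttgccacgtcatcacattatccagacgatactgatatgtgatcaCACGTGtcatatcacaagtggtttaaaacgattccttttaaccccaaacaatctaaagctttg
PSBQ-2, chr4:2673244-2673493, minus strand: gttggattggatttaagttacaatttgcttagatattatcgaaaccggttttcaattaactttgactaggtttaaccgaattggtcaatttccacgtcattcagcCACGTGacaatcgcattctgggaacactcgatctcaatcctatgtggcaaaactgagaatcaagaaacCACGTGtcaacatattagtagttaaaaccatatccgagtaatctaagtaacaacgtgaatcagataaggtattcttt
LHCB4.1, chr5:208616-208865, plus strand: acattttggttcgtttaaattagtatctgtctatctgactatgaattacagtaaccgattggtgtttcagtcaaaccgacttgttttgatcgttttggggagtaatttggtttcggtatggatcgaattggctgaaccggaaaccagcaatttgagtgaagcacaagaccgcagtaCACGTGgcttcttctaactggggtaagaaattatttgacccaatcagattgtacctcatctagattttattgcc
PSBQ-2 holds 2 copies and the other 4 genes 1 each. A match is a description of the letters only, since no binding data of these promoters were analysed here.

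Among the role groups of the members, the iron list was the one in which *pwr* stood highest relative to WT replicate 2. This was not particular to the members, as other genes of the list, given below, also stood above WT replicate 2 in *pwr*. A list of 25 iron deficiency response genes held 6 members. BHLH38 and BHLH101 are transcription factors that act with FIT when iron is short, and COPT2 is a copper transporter. The other 3, AT1G47395, AT1G47400 and AT2G30766, are annotated as uncharacterized proteins in RefSeq and are given by identifier only. BHLH38 had 6.47 and 0.225 FPKM in *hda9*, 19.9 and 2.65 in *pwr* and 27.8 and 4.59 in WT ES leaves. BHLH101 had 7.51 and 1.84 FPKM in *hda9*, 14 and 21.0 in *pwr* and 21.2 and 6.10 in WT. In both genes WT replicate 2 was below *hda9* replicate 1, so the groups overlapped. AT2G30766 had 352 and 51.8 FPKM in *hda9*, 601 and 831 in *pwr* and 737 and 236 in WT. COPT2 had 87.0 and 27.7 FPKM in *hda9*, 82.3 and 37.7 in *pwr* and 192 and 56.7 in WT, and was the 1 of the 6 whose *pwr* mean was not above WT replicate 2 on the log2 scale (-0.02). Their relatives BHLH39 and BHLH100 were listed at 0 in *hda9* ES replicate 2 and could not enter the rule. They had 4.99 and 13.8 FPKM in *hda9* replicate 1, against 23.3 and 40.5 in WT replicate 1.

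AT1G47395 had 154 and 11.6 FPKM in *hda9*, 297 and 152 in *pwr* and 395 and 89.0 in WT, and AT1G47400 had 58.9 and 3.90 FPKM in *hda9*, 111 and 72.0 in *pwr* and 134 and 28.8 in WT. The order of the 6 libraries was almost the same in both. These loci are neighbours on chromosome 1 with 1876 nt between them, and their coding sequences of 153 bases are identical at 136 positions (88.9%), so reads may be shared between them and each value is uncertain. The coding sequences are shown with the 17 differing bases in capitals (RefSeq, TAIR10.1, plus strand).
AT1G47395, chr1:17383117-17383269: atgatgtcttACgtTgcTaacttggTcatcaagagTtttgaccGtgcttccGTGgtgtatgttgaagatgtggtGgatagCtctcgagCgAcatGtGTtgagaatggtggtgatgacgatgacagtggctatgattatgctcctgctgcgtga
AT1G47400, chr1:17385818-17385970: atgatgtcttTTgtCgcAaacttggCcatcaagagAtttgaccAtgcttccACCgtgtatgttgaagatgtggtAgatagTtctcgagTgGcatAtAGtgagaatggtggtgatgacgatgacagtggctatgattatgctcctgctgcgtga
The capitals lie in the 5′ part of the reading frame, and its 3′ end has none. AT2G30766 was less alike, with 53.2% and 54.8% identity to the first and second of them over the alignment. In the 250 bases before the gene start, 3 of the 6 iron list members hold ACGTG, against 23.5% of all 17699 promoters. The promoters of AT1G47395 and AT1G47400 are 68.6% identical over their alignment. ACGTG stands in a shared stretch of them, so their matches cannot be counted as separate. The 3 promoters follow with ACGTG in capitals, where the G-box of BHLH38 reads as CACGTG because ACGTG lies on both of its strands.
AT1G47395, chr1:17382748-17382997, plus strand: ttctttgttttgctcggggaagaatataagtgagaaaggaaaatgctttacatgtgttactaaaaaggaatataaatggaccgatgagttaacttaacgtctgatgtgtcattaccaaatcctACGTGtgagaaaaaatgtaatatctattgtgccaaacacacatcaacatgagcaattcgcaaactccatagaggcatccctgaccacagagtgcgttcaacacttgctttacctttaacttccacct
AT1G47400, chr1:17385457-17385706, plus strand: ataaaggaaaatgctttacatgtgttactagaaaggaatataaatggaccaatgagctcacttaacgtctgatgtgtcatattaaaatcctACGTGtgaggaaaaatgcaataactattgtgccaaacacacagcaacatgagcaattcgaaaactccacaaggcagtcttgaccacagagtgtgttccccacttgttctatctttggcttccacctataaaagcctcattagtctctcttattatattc
BHLH38, chr3:21085246-21085495, minus strand: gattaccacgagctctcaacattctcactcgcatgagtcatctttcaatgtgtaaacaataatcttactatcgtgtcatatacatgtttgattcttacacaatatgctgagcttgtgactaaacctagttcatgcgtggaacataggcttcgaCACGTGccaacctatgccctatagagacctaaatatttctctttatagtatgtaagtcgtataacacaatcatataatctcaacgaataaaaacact

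Across the 6 iron list members the median difference of *hda9* from WT was -1.26 in pair 1 and -2.18 in pair 2, and the median *pwr* mean was 1.30 above WT replicate 2 but -0.74 from WT replicate 1. Both *hda9* libraries were below both WT libraries in 0 of the 6. Of the 15 other genes of the list that were tested in ES, 0 were called at a limma unadjusted p under 0.05, by which 2.71% of 18140 genes were lower and 2.23% higher in *hda9* (4.93% in all), and 0 at an adjusted p under 0.05, which 0.0276% of all genes passed. Their median *hda9* minus WT difference was -0.22. In *pwr* 0 of these 15 were called, with a median of 0.18 against WT. Among the 15, the *pwr* mean lay above WT replicate 2 in BTS (1.80), OPT3 (1.68) and FRO3 (1.16), among others. It lay below WT replicate 2 only in FIT (-0.67), CGLD27 (-0.10) and FRO2 (-0.07). In the list of 7 iron storage and vacuolar iron genes, which held 0 members, the metal transporter NRAMP3 was called higher, with 67.7 and 102 FPKM in *hda9*, against 16.0 and 46.3 in WT (1.57 ± 0.60, limma unadjusted p = 0.0404, adjusted p = 0.908).

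Genes of the rapid wound and touch response formed the opposite case, with WT replicate 1 as the lower WT library. These genes are switched on within minutes of handling or injury. The list of 32 held 3 members, the AP2/ERF factor ORA47, the deadenylase CAF1a and the ethylene response factor ERF6. ERF6 had 0.470 and 0.664 FPKM in *hda9*, 30.4 and 20.7 in *pwr* and 1.94 and 4.56 in WT ES leaves, so *hda9* was lowest and *pwr* highest with no overlap. CAF1a had 5.46 and 16.1 FPKM in *hda9*, 81.6 and 134 in *pwr* and 21.0 and 78.9 in WT, also with no overlap. ORA47 had 1.08 and 3.69 FPKM in *hda9*, 12.7 and 31.3 in *pwr* and 3.31 and 15.2 in WT, where *hda9* replicate 2 was above WT replicate 1. An opposite-strand gene overlaps ORA47 by 102 nt. In the 29 tested list genes that are no members, 2 were called lower and 0 higher in *hda9*, and 0 lower and 6 higher in *pwr*, at limma unadjusted p under 0.05, where 2.82% of all genes were lower and 3.65% higher in *pwr* (6.47% in all, and 0.0331% at an adjusted p under 0.05). ERF5 had 1.4 and 1.53 FPKM in *hda9*, 23.8 and 23.8 in *pwr* and 2.95 and 6.83 in WT, and fell by 1.17 ± 0.37 in *hda9* (SE, limma unadjusted p = 0.0218). ERF105 fell by 1.20 ± 0.43 (limma unadjusted p = 0.0336). The adjusted p was 0.908 for both. The contrasts of *hda9* and *pwr* share the WT libraries.

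**Figure D2:**
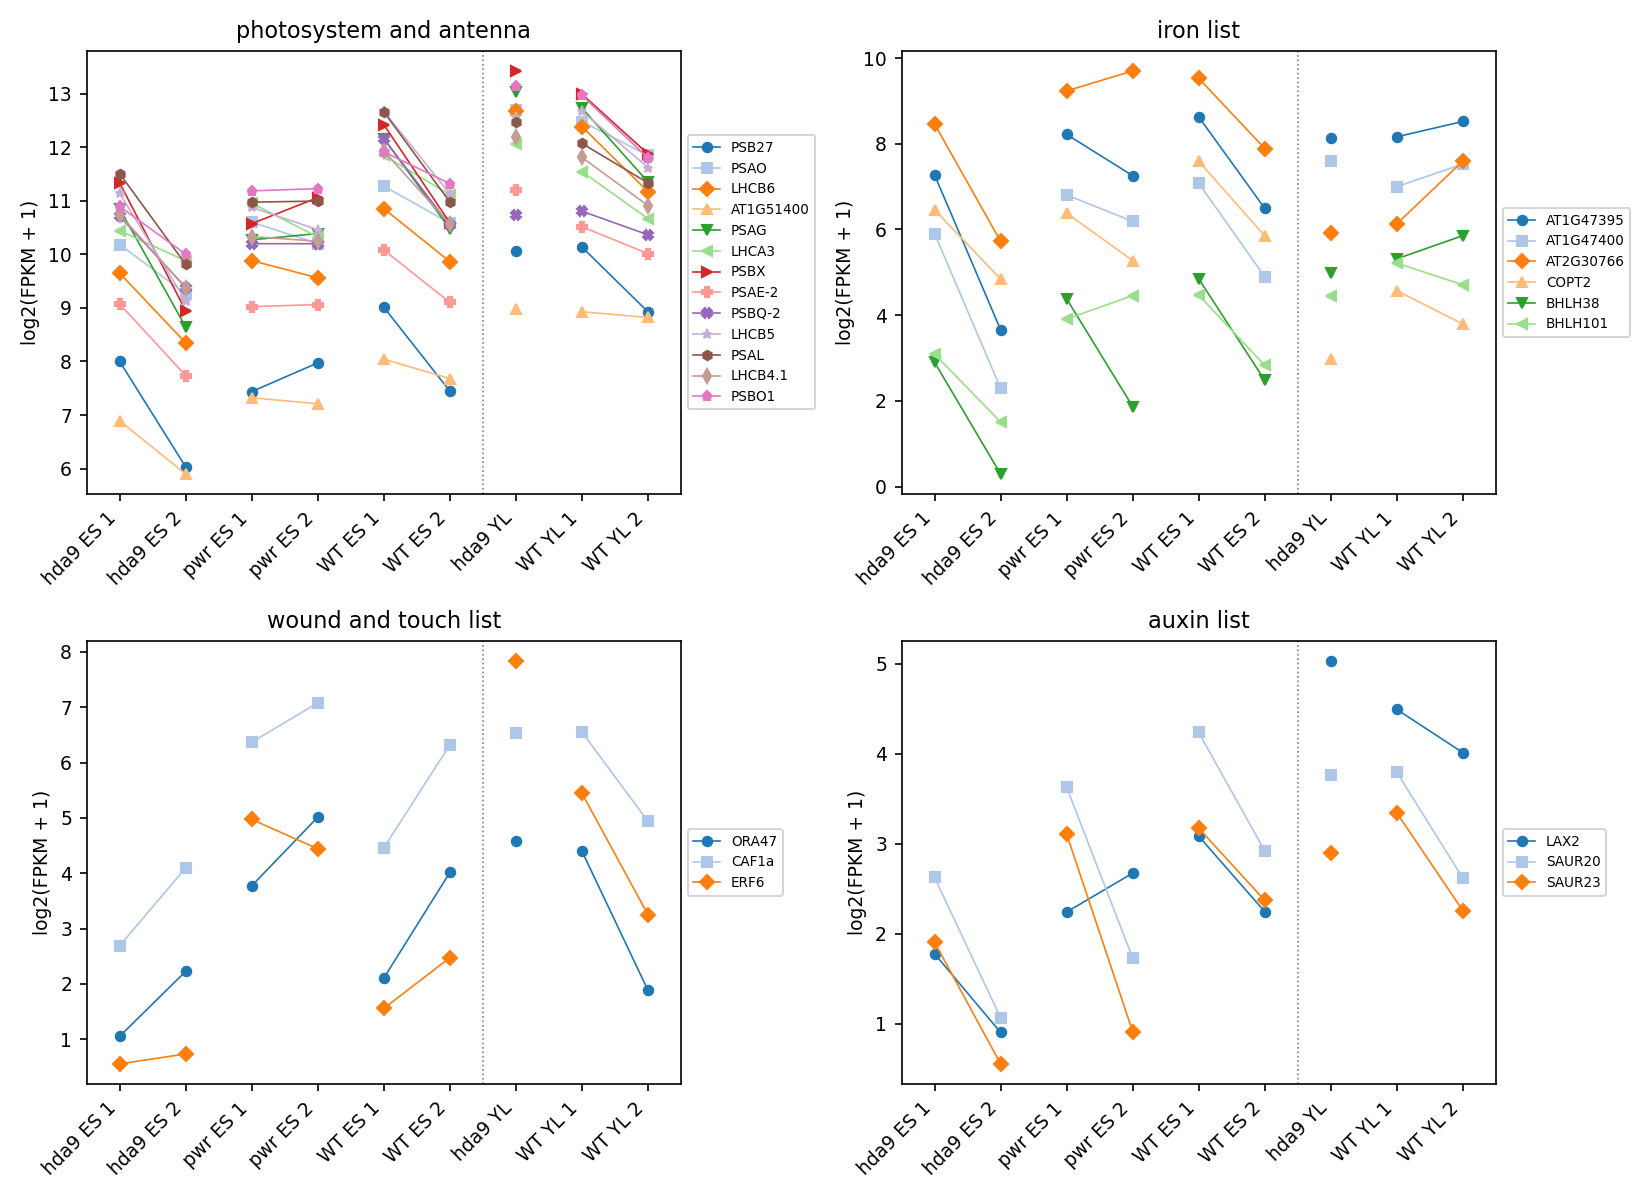
Points are log2(FPKM + 1) of single libraries for the members of 4 role groups, with *hda9*, *pwr* and WT ES libraries left of the dotted line and *hda9* and WT YL libraries right of it, and lines join the replicates of a group. Photosystem and iron list members are higher in WT ES 1 than in WT ES 2, whereas ORA47, CAF1a and ERF6 are lower in WT ES 1 and high in both *pwr* libraries.

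The auxin list of 25 held 3 members. LAX2, an auxin influx carrier of the AUX1 family, had 2.43 and 0.873 FPKM in *hda9*, 3.73 and 5.39 in *pwr* and 7.49 and 3.75 in WT. The small auxin up RNA gene SAUR20 had 5.18 and 1.10 FPKM in *hda9*, 11.4 and 2.32 in *pwr* and 17.9 and 6.58 in WT. SAUR23 had 2.75 and 0.470 FPKM in *hda9*, 7.63 and 0.886 in *pwr* and 8.02 and 4.18 in WT. In all 3 both *hda9* libraries were below both WT libraries, and for the SAUR genes *pwr* replicate 2 lay within the *hda9* range. The SAUR genes lie 8994 nt apart in a cluster of near-identical SAUR genes on chromosome 5, so their values are uncertain. Of the 20 other tested genes of the list, 2 were called lower in *hda9* and 0 higher. The carrier LAX1 had 6.27 and 3.93 FPKM in *hda9*, against 12.2 and 11.1 in WT (-1.07 ± 0.31, limma unadjusted p = 0.0145). The repressor IAA3 had 9.17 and 4.34 FPKM in *hda9*, against 16.3 and 14.9 in WT (-1.17 ± 0.36, limma unadjusted p = 0.0198). The median of the 20 was -0.60.

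Cell wall and surface proteins, grouped by their annotation after the members were known, numbered 7. DGR2, of a family of secreted cell wall proteins, had 17.2 and 1.46 FPKM in *hda9*, 23.9 and 35.7 in *pwr* and 45.1 and 27.7 in WT. Its relative AT5G11420 had 16.9 and 5.48 FPKM in *hda9*, 21.8 and 24.1 in *pwr* and 36.1 and 18.1 in WT. In both, *hda9* lay below every *pwr* and WT library. TBL36, of a family that acetylates wall polysaccharides, had 1.52 and 0.689 FPKM in *hda9*, 2.1 and 2.96 in *pwr* and 7.57 and 3.84 in WT. The proline-rich wall protein PRP4 had 52.8 and 7.54 FPKM in *hda9*, 29.8 and 20.2 in *pwr* and 110 and 29.7 in WT, with a wide gap between the WT libraries. AT3G17130, an invertase and pectin methylesterase inhibitor family gene, had 3.02 and 0.458 FPKM in *hda9*, 2.09 and 1.94 in *pwr* and 14.9 and 2.39 in WT. For PRP4, AT3G17130, AT1G66820 and AT1G70985, *hda9* replicate 1 was above WT replicate 2. The fixed list of 28 wall loosening and xyloglucan genes held 0 members, and 2 of its 22 tested genes were called lower and 0 higher in *hda9*. XTH9, a xyloglucan endotransglucosylase, had 10.6 and 3.76 FPKM in *hda9*, against 16.8 and 23.4 in WT (-1.49 ± 0.54, limma unadjusted p = 0.0351). The expansin EXPA11 had 3.15 and 0.0853 FPKM in *hda9*, against 8.69 and 4.54 in WT (-1.79 ± 0.68, limma unadjusted p = 0.0414).

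Small secreted peptides gave 3 members, and in each both *hda9* libraries were below the other 4. The defensin-like gene AT1G13609 had the largest mean difference of all members (-2.70), with 16.1 and 0.466 FPKM in *hda9*, 58.0 and 18.1 in *pwr* and 49.8 and 19.7 in WT. A second defensin-like gene, AT5G18407, had 1.27 and 2.56 FPKM in *hda9*, 14.7 and 4.81 in *pwr* and 16.9 and 7.12 in WT, and overlaps PIR121 on the opposite strand by 214 nt. CLE16, which encodes a CLE signalling peptide, had 2.67 and 1.66 FPKM in *hda9*, 6.43 and 4.16 in *pwr* and 16.1 and 4.61 in WT. It overlaps AT2G01510 on the same strand by 333 nt.

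Among the other annotated members, HOL2, a methyltransferase family gene, had the second largest mean difference (-2.53). It had 5.86 and 1.4 FPKM in *hda9*, 11.9 and 14.9 in *pwr* and 27.8 and 18.1 in WT, so *hda9* was lowest and *pwr* lay between. ECS1 had the highest WT mean of all members (4655 FPKM). Its values were 3181 and 593 FPKM in *hda9*, 2019 and 669 in *pwr* and 7810 and 1501 in WT, which leaves *hda9* replicate 1 above WT replicate 2 and *pwr* 2.75 below WT replicate 1 on the log2 scale. MLO3, a membrane protein with 7 transmembrane helices, had 3.36 and 2.25 FPKM in *hda9*, 5.90 and 4.02 in *pwr* and 8.12 and 6.32 in WT. TRY, a repressor of trichome fate, had 3.10 and 0.362 FPKM in *hda9*, 2.75 and 4.43 in *pwr* and 7.30 and 2.83 in WT. The subtilase AT5G59130 had 17.1 and 8.98 FPKM in *hda9*, 25.7 and 16.3 in *pwr* and 51.7 and 29.2 in WT, with *pwr* replicate 2 below *hda9* replicate 1. The rhodanese family gene AT2G42220 had 63.1 and 28.2 FPKM in *hda9*, 87.6 and 87.1 in *pwr* and 136 and 93.7 in WT. In the remaining genes CYP76C1, MES18, AT1G01170, AT3G50685, AT4G30650 and MRU1 the *hda9* differences in the pairs ran from -1.72 to -1.0 on the log2 scale.

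AT5G45880, a Pollen Ole e 1 allergen and extensin family gene, is 1 of the 14 pollen markers and, like the sum of the others, was highest in the *pwr* ES libraries. It had 0.161 and 0.692 FPKM in *hda9*, 9.12 and 12.1 in *pwr* and 1.92 and 3.98 in WT. The 13 other pollen markers summed to 5.20 and 3.77 FPKM in *hda9*, 70.7 and 99.6 in *pwr* and 8.94 and 35.9 in WT ES leaves. The order of the *hda9* libraries thus differed from that of AT5G45880. In YL the 13 summed to 25.5 FPKM in *hda9* and 21.0 and 23.5 in WT, where AT5G45880 had 0 in *hda9* and 1.36 and 0 in WT. Of the 11 tested, 9 were called higher and 0 lower in *pwr*, and 1 was called lower and 0 higher in *hda9*. None of the 13 was at 0 in every library. The part of pollen RNA in the level of AT5G45880 was not tested.

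Of the 14 uncharacterized or non-coding members, all were higher in WT replicate 1 than in replicate 2. AT5G35480 differed alike in both pairs (-2.39 and -2.34), with 103 and 43.7 FPKM in *hda9*, 159 and 207 in *pwr* and 546 and 225 in WT. The *hda9* libraries were below all others, and *pwr* was below both WT libraries. It lies 220 nt from MRU1 on chromosome 5, which had 22.9 and 10.12 FPKM in *hda9*, 23.0 and 33.0 in *pwr* and 46.9 and 21.4 in WT. The lncRNA AT2G05914 had 5.89 and 1.41 FPKM in *hda9*, 3.88 and 5.69 in *pwr* and 24.8 and 6.52 in WT, and a gene on the opposite strand overlaps it by 450 nt. AT2G35850 had 1.95 and 2.13 FPKM in *hda9*, 7.93 and 23.2 in *pwr* and 10.7 and 7.59 in WT. All of its 243 nt lie within AT2G35840 on the same strand, which averaged 39.9 FPKM in WT ES leaves, so its values are uncertain. In all, 23 of the 69 members overlap another annotated gene.

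Young leaves gave the measure that the rule did not use. Of the 69 members, 62 had a mean of at least 1 FPKM in YL and were tested among 17780 genes with limma. The single *hda9* library was assumed to vary as the WT libraries do. At an unadjusted p under 0.05, 6 members (9.68% of 62) were called lower, against 4.94% of all genes, and 1 was called higher, against 3.78%, which makes 7 calls among members, against 8.72% of all genes in either direction. The 6 include HDA9, the mutated gene itself. The median difference of the 62 was 0.11, against -0.06 over all genes. The *hda9* library was below both WT libraries for 20 of the 62 (32.3%, against 39.8% of all genes) and above both for 23 (37.1%, against 34.2%). At an adjusted p under 0.05, 0 members and 19 of the 17780 genes passed (0.107%), and the smallest adjusted p of a member was 0.437. Of the 144 tested genes that were lower in both *hda9* pairs and in *pwr*, 14 were called lower and 10 higher in YL. The share called lower was thus like that of the members.

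AT5G11330 had 10.8 FPKM in *hda9* YL, against 35.4 and 35.9 in WT, and fell by 1.63 ± 0.38 (SE, n = 1 and 2 libraries, limma unadjusted p = 0.00502, adjusted p = 0.437). CLE16 had 6.32 FPKM in *hda9*, against 18.5 and 17.8 in WT, and fell by 1.39 ± 0.39 (limma unadjusted p = 0.0114). In both genes the WT libraries were nearly level and *hda9* clear below them. HDA9 fell by 1.38 ± 0.47 (limma unadjusted p = 0.0262). AT3G45160 had 22.0 FPKM in *hda9*, against 46.0 and 132 in WT (-1.78 ± 0.66, limma unadjusted p = 0.0345). AT3G17130 was listed at 0 in *hda9* and had 8.16 and 1.84 FPKM in WT (limma unadjusted p = 0.0201). COPT2 had 6.85 FPKM in *hda9*, against 22.8 and 12.9 in WT (-1.21 ± 0.47, limma unadjusted p = 0.0427). AT3G45160 and COPT2 lost their calls when the libraries were rescaled by median ratios (limma unadjusted p = 0.0552 and 0.0702). These 2, AT3G17130 and ERF6 also lost them without the filter on low genes, with unadjusted p from 0.0622 to 0.123.

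ERF6 was the member called higher in YL, with 228 FPKM in *hda9*, against 42.6 and 8.53 in WT (3.49 ± 0.86, limma unadjusted p = 0.00652, adjusted p = 0.448). Of the 29 other wound and touch genes, 17 were called higher in *hda9* YL and 0 lower, with a median of 1.53. For the photosystem and antenna members, *hda9* was above both WT YL libraries in 10 of the 13 and below both in 0, with 0 calls. Over all genes tested, 34.2% were above both and 39.8% below both. The median was 0.78, with 0.28 from WT YL replicate 1 and 1.19 from WT YL replicate 2. Of the YL libraries only WT replicate 2 lies in the set of 5 with shared FPKM steps. These members were thus lower in *hda9* ES pairs and in no case below both WT libraries in *hda9* YL. PSBX, for example, had 11003 FPKM in *hda9*, against 8141 and 3760 in WT YL. Of the 6 iron list members 5 were below both WT YL libraries, among them BHLH38 with 30.8 FPKM in *hda9*, against 38.8 and 56.9 in WT. Of the 8 enzyme and kinase members, a group formed after the values were seen, 6 were below both. Of all members tested in YL, 32.3% were below both, against 39.8% of all genes. The members as a whole thus showed no excess, and nothing is read from these 2 group counts. MLP43 had 160 FPKM in *hda9*, against 459 and 273 in WT (-1.14, limma unadjusted p = 0.0927). AT5G35480 had 3.94 FPKM in *hda9*, against 7.62 and 9.88 in WT (-0.97, limma unadjusted p = 0.0612). Of the 17 members that met the *pwr* condition against both WT libraries, a group formed after the values were seen, 15 were tested. Called lower were 3 (HDA9, the mutated gene, AT3G45160 and AT5G11330), against 4.94% of all genes, and called higher was 1 (ERF6), against 3.78%. Their median was -0.33, against -0.06 over all genes. Nothing is read from these few calls.

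**Figure D3:**
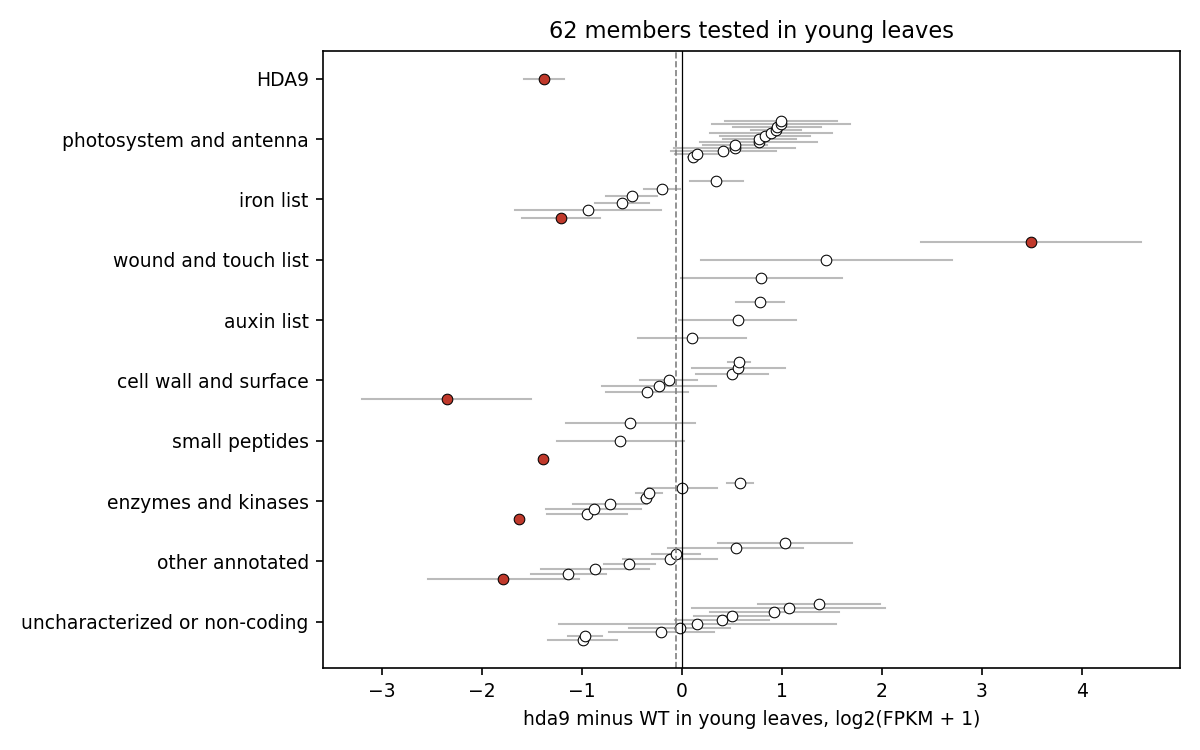
Each circle is a member tested in young leaves, placed by its *hda9* minus WT difference on the log2(FPKM + 1) scale, and the grey bar spans the differences from WT replicate 1 and from WT replicate 2. Filled circles are the 7 members with a limma unadjusted p under 0.05, and the dashed line is the median of -0.06 over all 17780 genes.

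WT FPKM was lower in ES than in YL in both replicate numbers for 31 members (44.9%) and higher in both for 23 (33.3%), against 19.7% and 62.5% of all 17743 genes, and the median WT ES minus YL difference was -0.24, against 0.62 over all 17743 genes. The tables of ES and YL were made separately and were not tested against each other. AT2G13463 and AT3G13433 were listed at 0 in all 3 YL libraries, whereas AT2G13463 had 30.6 and 14.8 FPKM in *hda9*, 33.7 and 41.8 in *pwr* and 94.5 and 38.6 in WT ES leaves. MRU1 was listed at 0 in *hda9* YL and had 1.34 and 1.62 FPKM in WT YL.

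In the photosystem list, which holds 26 genes and 6 of the 13 photosystem members, 20 genes were no members. Of these 5 were called lower and 0 higher in *hda9* ES leaves, and their median was -1.18. LHCB1.4 had 107 and 18.5 FPKM in *hda9*, 121 and 54.5 in *pwr* and 561 and 566 in WT (-3.62 ± 0.84, limma unadjusted p = 0.00581). CAB3 had 534 and 243 FPKM in *hda9*, 1043 and 653 in *pwr* and 3506 and 1458 in WT (-2.65 ± 0.62, limma unadjusted p = 0.00601). CAB1 had 3341 and 1269 FPKM in *hda9*, against 11778 and 6318 in WT (-2.07 ± 0.63, limma unadjusted p = 0.0180). These are LHCB1 genes of nearly identical sequence, so their split is uncertain, and LHCB1.4 and CAB3 were also well below WT in *pwr*. Of the 10 salicylic acid and defense genes, with a median of -0.47, PAD4 was called lower (-1.17 ± 0.39, limma unadjusted p = 0.0251). Of the 10 phosphate starvation genes, with a median of 0.70, PHO1;H1 was called higher (1.10 ± 0.42, limma unadjusted p = 0.0428). Of the 11 senescence markers, with the median of 1.06 given above, WRKY6 was called higher, with 34.3 and 36.0 FPKM in *hda9*, 19.8 and 19.7 in *pwr* and 8.72 and 23.8 in WT (1.22 ± 0.46, limma unadjusted p = 0.0402). NAP, a senescence transcription factor that missed the threshold, had 63.1 and 218 FPKM in *hda9*, 39.2 and 40.04 in *pwr* and 20.7 and 62.3 in WT (1.68 ± 0.74, limma unadjusted p = 0.0650). Apart from LHCB1.4 and CAB3, each pathway list gene named as called in *hda9* ES leaves, PWR included, missed an unadjusted p of 0.05 without 1 or more of the ES libraries. No list gene outside the members passed an adjusted p under 0.05 in *hda9* ES leaves, the smallest being 0.908.

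Motif shares of the 69 promoters were set beside those of the 17699 filtered genes, with no test, counting both strands in the 250 bases before the gene start. The G-box CACGTG stood in 13.0% of members and 7.53% of all promoters, the I-box GATAAG in 18.8% and 12.5%, and the auxin response element TGTCTC in 15.9% and 10.3%. Of the 9 members with the G-box, 5 were photosystem and antenna genes, so its share is not a trait of the members at large. The W-box core TTGAC, bound by WRKY factors, stood in 37.7% of members and 44.8% of all. The E-box CANNTG, which includes the G-box, stood in 63.8% and 56.1%, ACGTG, which also lies in the G-box, in 27.5% and 23.5%, and the evening element AAAATATCT in 4.35% and 2.57%. GCCGCC stood in 1.45% of members and 2.08% of all, and CGCGTT in 1.45% and 2.84%. The median GC content was 32.0% in members and 31.6% in all.

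**Figure D4:**
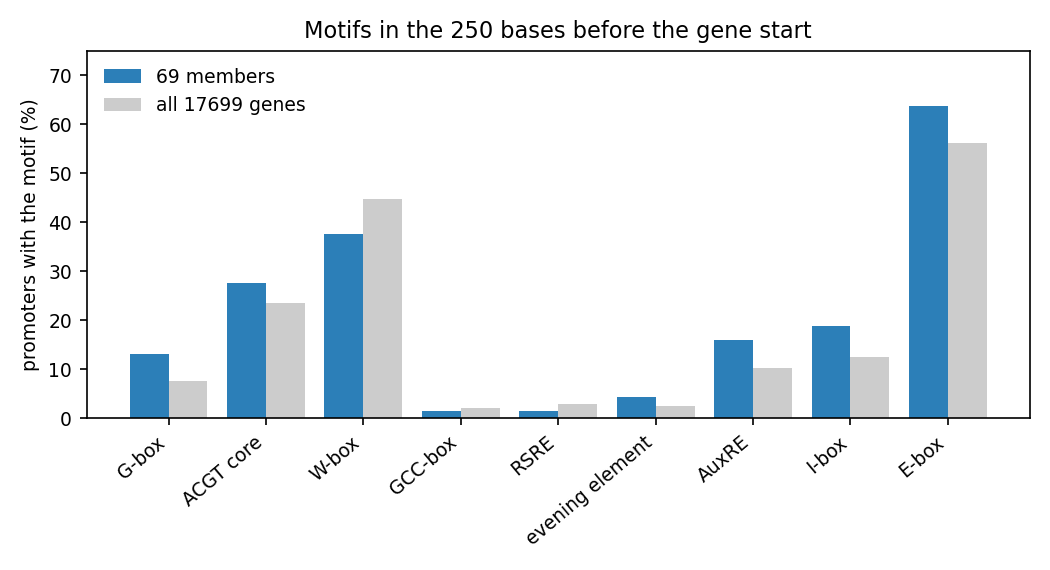
Bars give the share of promoters (percent, y axis) that hold each motif on either strand, for the 69 members on the left and for all 17699 filtered genes with a promoter on the right. G-box, AuxRE and I-box shares are higher in the members and the W-box share is lower, with no test. Of the 9 members with the G-box, 5 are photosystem and antenna genes.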

How the data were processed

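RNA-seq of leaves was analysed from 9 libraries. Per the study's methods, reads were aligned to TAIR10 with Bowtie2, reads at identical positions were collapsed, and TopHat and Cufflinks followed. The authors deposited FPKM, 1 value for each gene and library, and no counts, so no interval from counting error was computed and depth per gene is unknown. Collapsing may compress the highest values. Genotype and replicate were taken from the labels. Symbols, products and promoters come from RefSeq (TAIR10.1), which matched 32820 of 33278 identifiers. The tables carry no coordinates.

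Values were compared as log2(FPKM + 1), a scale that understates fold changes of low genes. Under R 4.3.3, limma 3.58.1 fitted a linear model to every gene with moderated variances that follow the mean level, separately for ES (3 genotypes, 18140 genes with a mean of at least 1 FPKM) and YL (17780 genes). A call means p under 0.05 without adjustment, as in the study, with Benjamini-Hochberg adjusted p beside it. The fits included the members, but no p-value of their own ES contrasts is given, because the rule used those values. Tables and plots were made with Python 3.11.15, pandas 2.3.3 and matplotlib 3.10.9. Both fits were tested on simulated data.

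The members and lists were chosen with earlier results of these data known. The genes named are HDA9 and PWR, every member in a fixed list, the 10 members with the largest falls, the 10 with the highest WT level, those called in YL, genes next to the limits, the 5 with the highest *pwr* level relative to WT replicate 2 and up to 3 called list genes that are no members. Others were named after their values were seen, and role groups beyond the fixed lists were formed then. Alternatives were a pseudocount of 0.1, no filter or a minimum of 5 FPKM, 2 rescalings and a block for replicate number or library set. Further ones were other ways of pairing, adjusted p, and single libraries left out of the fits. In the rule, a pair condition or a *pwr* library was left out. ChIP-seq was not analysed here.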

Additional observations from a re-analysis of the deposited data

Results flagged for a closer look

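ERF6 and 10 photosystem and antenna members were lower in both *hda9* ES pairs but higher in the *hda9* YL library than in both WT YL libraries, so the direction differed between leaf ages. This difference was not tested. The YL difference from WT was 3.49 on the log2 scale for ERF6, 0.53 for PSAO, 0.89 for LHCB6, 0.11 for AT1G51400, 0.99 for PSAG, 0.95 for LHCA3, 0.99 for PSBX, 0.94 for PSAE-2, 0.78 for PSAL, 0.83 for LHCB4.1 and 0.77 for PSBO1. In YL only ERF6 of these 11 had a limma unadjusted p under 0.05 (0.00652). WT YL replicate 1 was above replicate 2 for all 11.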

How the results depend on the processing

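The member count of 69 changed by over 1.5 times with a pseudocount of 0.1 (131, with 64 of the 69 kept), with *hda9* and WT means in place of pairs (221), with *pwr* against the WT mean (34, of which 31 were members) and with *pwr* against WT replicate 1 (33, of which 17 were members), the last chosen after seeing the data. With 1 pair condition or 1 *pwr* library left out it ranged from 62 to 569. It was 569 without the *hda9* condition of pair 1 and 238 without that of pair 2. In both cases the *pwr* condition still used WT replicate 2, and all 69 members were kept. A rule without WT replicate 2 in any part was not among these settings. It stayed within 1.5 times under the other filters and both rescalings. In YL the count of 1550 called genes was 19 with adjusted p, and the median of the members ranged from -0.07 to 0.35 with a WT library left out and was -0.02 without the filter.

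In ES the count called in *hda9* (895) was 1356 without the filter, 5 with adjusted p, 3075 with a library set block and from 470 (without *hda9* replicate 2) to 1723 (without *hda9* replicate 1) with a library left out, being 579 without WT replicate 1. In *pwr* (1173) these were 1792, 6, 2234 and from 421 (without *pwr* replicate 2) to 1429, being 770 without WT replicate 1. List genes called that are no members, 16 in *hda9* and 9 in *pwr*, were 0 and 0 with adjusted p, 53 and 29 with a library set block, and from 8 to 37 and from 8 to 23 with a library left out. With a replicate block the counts were 1560 for *hda9*, 2161 for *pwr*, and 26 and 20 list genes. The labels do not tie replicate numbers to shared plants, and deviations of same-numbered libraries correlated at 0.55 between *hda9* and WT, 0.10 between *pwr* and WT and -0.01 between *hda9* and *pwr*. Of the 14 named list genes outside the members, only LHCB1.4 and CAB3 kept an unadjusted p under 0.05 in *hda9* under every alternative fit, and each of the other 12 lost it without 1 or more of the ES libraries. Leaving out an ES library leaves its group with 1, assumed to vary like the others, and leaving out a WT YL library leaves no test. No direction reversed among the 7 members called in YL and these 14 list genes. The other members were not refitted under the alternatives, and of the 6 iron list members AT1G47395, AT1G47400, AT2G30766, BHLH38 and BHLH101 were above WT replicate 2 but below WT replicate 1 in *pwr* (-0.89, -0.58, -0.06, -1.72 and -0.29 against WT replicate 1). FPKM without counts limits every statement on genes near 1 FPKM.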

Other observations

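Of the 11 members on chromosome 3, 4 lie within 500 kb of HDA9, a pattern seen after the members were known and not tested. Measured from HDA9 along the chromosome, CAF1a lies at -276 kb, AT3G44798 at 114 kb, AT3G45160 at 306 kb and MLO3 at 391 kb. Of the 73 other filtered genes within 500 kb of HDA9, 4 were members (5.48%, against 0.390% of 17700 placed genes), 5 were lower in both *hda9* pairs (6.85%, against 1.25%) and 0 were higher by 1 or more in both (against 1.27%). Between 500 and 1000 kb there were no further members. In YL, 4 of 62 tested genes within 500 kb were called lower (6.45%, against 4.94% of all genes) and 2 higher.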
